A study of Homo sapiens with 6 samples.

Results

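The 42 genes described here encode proteins that repair DNA or signal its damage, and they were taken by name, with MGMT at their head. They were followed in the human line Mec-1, a long-established B cell line that resembles chronic lymphocytic leukaemia and that the labels describe as constitutively SLAMF1 positive. Per the series' design text, 3 arrays held RNA of Mec-1 cells carrying a scrambled, non-effective short hairpin RNA (shRNA) cassette, and 3 held RNA of a Mec-1 variant carrying a pGFP-V-RS construct with an shRNA against SLAMF1, the gene of a lymphocyte surface receptor. Both kinds of cells were grown in culture in complete medium with no other treatment named. Replicates are termed biological in that text, which does not say whether the variant was 1 clone or a pool. The p-values cover the spread among these 6 samples, which may be technical. The labels' extraction protocol speaks of purified leukaemic cells, while every sample is labelled as the cell line.

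Of the 42 genes, 39 had at least 1 probe with their name on the Illumina beadchip, 72 probes in all out of 47321 with a value. No probe was named for BRCA2, FANCA or FANCD2, which were therefore not analysed here. A probe was kept when its detection p-value, which ranks it against the array's negative control probes, fell under 0.05 on 3 or more of the 6 arrays. This left 61 probes of 37 genes. The single probe of RAD50 was detected on no array and the 3 probes of ATR on at most 1 control array each, so these genes were not tested. Where several probes of a gene were kept, the probe with the highest mean was tested, and 36 of the 37 tested probes were detected on all 6 arrays. The exception was XRCC4, detected on 2 control arrays and 1 array labelled SLAMF1 shRNA.

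DNA repair is divided by the kind of damage it answers. MGMT and the ALKBH2 dioxygenase reverse alkyl damage directly on the base, and MGMT is known for removing methyl groups from guanine and thereby lowering the effect of alkylating drugs. Base excision, nucleotide excision and mismatch repair cut out a damaged or mispaired stretch and fill the gap from the other strand, while homologous recombination and end joining mend double-strand breaks. Germinal-centre B cells also use mismatch and base excision factors when they diversify their antibody genes, and end joining factors assemble and switch those genes.

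Before the repair genes, the targeted gene was checked. The SLAMF1 probe read 8.26, 8.38 and 8.01 on the control arrays and 8.70, 8.44 and 8.64 on the arrays labelled SLAMF1 shRNA, on the log2 scale after background correction with an offset of 16. SLAMF1 was thus not lower in the arrays labelled with its shRNA. The difference was 0.38 ± 0.18 (SE, adjusted p = 0.153 in limma), and without replicate 2 of those arrays it was 0.46 in the upward direction (adjusted p = 0.0489). The labels were used as given, and every direction below is that of the arrays labelled SLAMF1 shRNA against the arrays labelled control shRNA.

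Arrays averaged a raw signal of 208 to 294 and detected 36.3% to 41.4% of their probes, with replicate 2 labelled SLAMF1 shRNA at the low end of both. That array also stood apart from its group. Its levels correlated at 0.928 and 0.942 with the other arrays of its label over the genes tested, while replicates 1 and 3 correlated at 0.994 and the control arrays at 0.981 to 0.992. Counts and members' differences are therefore given with and without it. Of the 7 B cell markers with a named probe, all were detected on at least 1 array, 6 of them on every array, and PAX5, which encodes a B cell identity factor, on 1 array only. The 6 tested ones all passed the test, beside 24.6% of all genes tested. Of these, 4 were higher (CD22, CD79A, CD79B and BLK) and 2 lower (MS4A1 and BANK1). The B cell list's summed linear level was 2090 to 2350 on the control arrays and 5800 to 7940 on the others. Markers of other cells were mostly dim. Of 8 T and NK cell markers, CD3D, CD3E, CD4, CD8A and KLRD1 were detected on no array, and the list's summed linear level was 161 to 169 on the control arrays and 204 to 342 on the others. NKG7, a granule gene of killer lymphocytes, was detected on 2 control arrays and all 3 others and was higher by 1.98 (limma, adjusted p = 0.0113). Of 8 myeloid markers 7 were detected on some array, MPO on none, with sums of 175 to 184 and 169 to 203. CSF1R, a macrophage growth factor receptor gene, was detected on no control array and on all 3 others, at least 1.53-fold higher (adjusted p = 0.00881). Of 8 fibroblast, endothelial and epithelial markers 7 were detected on some array, COL3A1 on none, with sums of 178 to 185 and 157 to 163. The epithelial adhesion gene EPCAM and the endothelial gene PECAM1 were detected on all 3 control arrays and on none of the others, at least 1.35-fold and 1.28-fold lower (adjusted p = 0.0369 and 0.0417). The "at least" folds set the brighter mean against the higher of the dim probe's own signal and the lowest detected signal on each array. The erythroid markers HBB, HBA1 and ALAS2 were detected on no array. The part of these markers in the results below was not tested.

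Of the 37 tested repair genes, 4 were higher in the arrays labelled SLAMF1 shRNA (MGMT, ERCC5, MUTYH and PRKDC) and 1 was lower (LIG4), at an adjusted p under 0.05 in limma. These 5 genes are 13.5% of those tested, beside 24.6% of all 10832 genes tested. By direction, the background was 12.9% higher and 11.7% lower. The members' median log2 difference was 0.11 and that of all tested genes 0.02, and the members ranged from -0.98 to 2.92, with 22 above and 15 below 0. With arrays centred on their medians in place of quantile normalization, both medians were -0.14. The 3 arrays of each label did not overlap for 16 members (43.2%), 10 higher and 6 lower, which is close to the 45.7% of all genes. Both shares lay below those of all genes, and the values below concern single genes.

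Without replicate 2 labelled SLAMF1 shRNA, 10 members were higher and 1 lower, 29.7% of the 37 beside 36.9% of all genes (19.4% higher and 17.4% lower). All 5 genes named above were among these 11. The others were ERCC2, MRE11, NBN, ATM, FANCI and POLH, all higher.

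**Figure D1:**
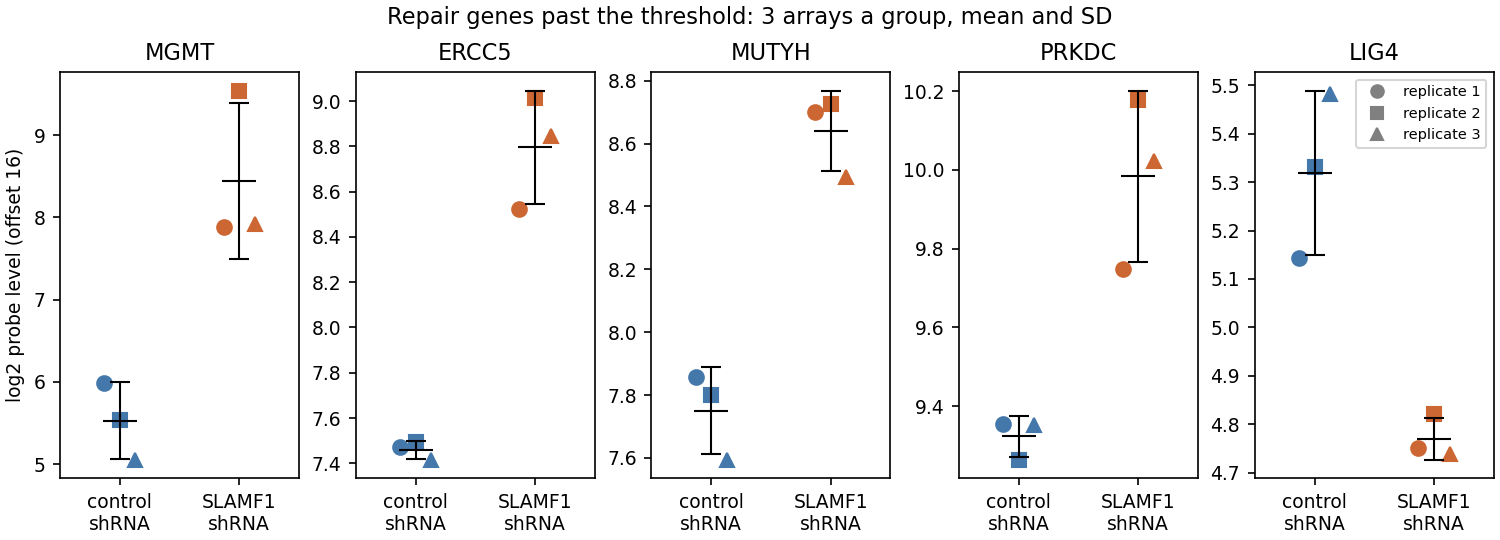
Levels of the 5 repair genes past the threshold, on the log2 scale with an offset of 16, for the 3 arrays of each label (symbols give the replicate, long bars the mean, short bars the SD). Each panel has its own vertical range that does not start at 0. MGMT spans 5.05 to 5.99 on the control arrays and 7.88 to 9.54 on the others, and no panel shows overlap between the labels.

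MGMT showed the largest difference of the 37 members. MGMT, which encodes O6-methylguanine-DNA methyltransferase, was measured by a single probe, ILMN_1795639, detected on all 6 arrays. Its log2 level was 5.99, 5.54 and 5.05 on the control arrays and 7.88, 9.54 and 7.92 on the arrays labelled SLAMF1 shRNA. The lowest of the second group lay well above the highest of the first, and replicate 2 was the highest of all. The means were 5.53 ± 0.47 (SD, n = 3) and 8.45 ± 0.95 (SD, n = 3). This is a difference of 2.92 ± 0.46 (SE, 95% interval 1.86 to 3.98, limma adjusted p = 0.00346), or 7.57-fold. Without replicate 2 the difference was 2.37 (adjusted p = 9.74e-06), or 5.18-fold, so the change did not rest on that array. Over the 18 alternative settings it ran from 1.88, with no background correction, to 3.20, and MGMT passed under all of them.

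ALKBH2, the other direct reversal enzyme tested, read 7.06, 6.97 and 6.91 on the control arrays and 7.23, 8.02 and 7.28 on the others. The labels did not overlap, and replicate 2 again stood highest. Its difference of 0.53 did not pass the test (adjusted p = 0.138) and was 0.28 without replicate 2.

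The 5′ region of MGMT is printed because the gene had the largest difference, and that of ERCC5 because it had the second largest among the members that passed. Both are RefSeq promoters of build GRCh38.p14, plus strand, from 250 bases before to 50 bases after the annotated start. Capitals mark GC boxes (GGGCGG, or CCGCCC on the other strand) and, in ERCC5 only, an ETS-type motif (CCGGAAG, or CTTCCGG on the other strand). MGMT lies on chromosome 10, at chr10:129466991-129467290, and ERCC5 on chromosome 13, at chr13:102845782-102846081.
MGMT: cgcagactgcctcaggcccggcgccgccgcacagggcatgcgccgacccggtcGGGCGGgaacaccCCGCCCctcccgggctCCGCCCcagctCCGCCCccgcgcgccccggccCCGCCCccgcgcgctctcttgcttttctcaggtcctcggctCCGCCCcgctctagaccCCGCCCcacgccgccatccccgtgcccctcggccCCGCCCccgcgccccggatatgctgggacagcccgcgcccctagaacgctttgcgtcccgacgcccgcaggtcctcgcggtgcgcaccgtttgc
ERCC5: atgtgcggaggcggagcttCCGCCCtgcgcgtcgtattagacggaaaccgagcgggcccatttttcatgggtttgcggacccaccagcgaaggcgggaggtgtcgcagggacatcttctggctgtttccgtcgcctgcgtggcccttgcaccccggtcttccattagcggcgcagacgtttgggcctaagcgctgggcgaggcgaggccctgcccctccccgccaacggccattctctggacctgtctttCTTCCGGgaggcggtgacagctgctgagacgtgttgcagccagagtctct

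The MGMT window held 45 CpG dinucleotides and 78.7% G and C, and its 8 GC boxes are visible as the repeated capitals. At least 8 GC boxes were found in 285 of 35116 RefSeq promoter entries (0.812%), and MGMT's was the only such entry among 56 entries that matched 38 of the 42 members. The ERCC5 window held 28 CpG dinucleotides, 1 GC box and 1 ETS-type motif. CpG counts ran from 5 to 45 over the members' entries with a median of 25.5, against a median of 14 over all entries. A GC box was present in 42 of the 56 members' entries (75%) and in 45% of all entries. The ETS-type motif was present in 19 of them (33.9%) and in 10.3% of all. TGACGTCA, the cyclic AMP response element, was in 5 (8.93%) against 1.85% of all, TTTNGCGC, an E2F-type motif, in 3 (5.36%) against 1.79%, and TGANTCA, the AP-1 motif, in 1 (1.79%) against 7.71%. Both strands were searched, several entries can belong to 1 gene and overlap, and a match of letters is a description. Methylation of these windows was not analysed here.

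The tested genes beside MGMT on chromosome 10 differed in both directions. Among the 5 nearest tested genes on each side, by their order in the RefSeq table of the same assembly, 1 was higher and 2 were lower, with a median difference of -0.20. Of all genes tested, 12.9% were higher and 11.7% lower. BNIP3, a mitophagy receptor, was higher by 1.20 (limma adjusted p = 0.00473). BCCIP, a partner of BRCA2 and p21, was lower (-1.33, adjusted p = 0.00312), as was the phosphatase gene PTPRE (-0.83, adjusted p = 0.0113). MKI67, the nearest tested gene before MGMT and a widely used proliferation marker, differed by -0.38 (adjusted p = 0.267). The other six neighbours, UROS, DHX32, GLRX3, PPP2R2D, PWWP2B and ADAM8, did not pass the test.

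Nucleotide excision repair removes bulky lesions such as those of ultraviolet light, and 1 of its 7 tested members passed. ERCC5, which encodes the XPG endonuclease that cuts on the 3′ side of the lesion, read 7.47, 7.49 and 7.42 on the control arrays and 8.52, 9.02 and 8.85 on the others. The control arrays lay close together and all 3 others lay above them. The difference was 1.34 ± 0.18 (SE, limma adjusted p = 0.00173), or 2.52-fold, it was 1.23 without replicate 2 (adjusted p = 0.000112), and it passed under all 18 alternative settings. RefSeq also lists a readthrough transcript, BIVM-ERCC5, that holds both genes, and the probe's position was not used here. BIVM itself differed by -0.01 (adjusted p = 0.976). Of the 10 tested neighbours of ERCC5, 1 was higher and 2 were lower, with a median of -0.45, beside 12.9% higher and 11.7% lower of all genes.

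None of the other tested nucleotide excision genes passed with all 6 arrays. ERCC1, the partner subunit of the endonuclease that cuts on the 5′ side, read 7.70, 7.12 and 7.32 on the control arrays and 7.79, 9.28 and 7.82 on the others. Its difference of 0.92 (adjusted p = 0.13) was 0.43 without replicate 2 (adjusted p = 0.0935), and the 2 other probes of the gene differed by 0.94 and -0.30. ERCC2, which encodes the XPD helicase of transcription factor TFIIH, read 6.46, 6.86 and 6.60 on the control arrays and 7.13, 8.05 and 7.19 on the others. ERCC2 arrays did not overlap, its difference was 0.82 (adjusted p = 0.0624), and without replicate 2 it was 0.52 and passed (adjusted p = 0.0296). The damage sensors XPC and DDB2 differed by 0.40 and 0.54 and the scaffold protein gene XPA by 0.14 (-0.08 with arrays centred on their medians), none past the threshold. ERCC3, which encodes the XPB helicase of TFIIH, had a negative difference (-0.37, adjusted p = 0.181).

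Base excision repair starts with a glycosylase that removes a single damaged base. MUTYH, the glycosylase that removes adenine paired with oxidised guanine, was the only 1 of 10 tested base excision members to pass. Its level was 7.86, 7.80 and 7.59 on the control arrays and 8.70, 8.73 and 8.49 on the others, with replicate 2 in its group's range. MUTYH was higher by 0.89 ± 0.17 (SE, limma adjusted p = 0.00738), or 1.85-fold, and by 0.85 without replicate 2. Centring arrays on their medians in place of quantile normalization gave 0.62 with an adjusted p of 0.0995. A second probe gave 0.59 (adjusted p = 0.0786) and another 0.23 (adjusted p = 0.611) when each probe was tested separately, so no other MUTYH probe passed. The mean of its probes passed at 0.57 (adjusted p = 0.0362).

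The other glycosylase genes differed in both directions without passing. NTHL1, which acts on oxidised pyrimidines, read 7.42, 7.49 and 7.07 on the control arrays and 7.51, 9.13 and 7.69 on the others. Its difference of 0.79 (adjusted p = 0.193) was 0.27 without replicate 2. OGG1, which removes oxidised guanine, differed by -0.51 (adjusted p = 0.106). A dimmer OGG1 probe read 5.67, 5.56 and 5.50 on the control arrays and 4.99, 4.39 and 5.02 on the others and passed as a separate probe (-0.78, limma adjusted p = 0.0357). UNG, which removes uracil from DNA, differed by -0.03 and its 2 other probes by -0.43 and -0.16.

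Downstream of the glycosylases no tested probe passed. PARP2, a sensor of strand breaks, read 7.94, 7.69 and 7.70 on the control arrays and 7.49, 7.35 and 7.34 on the others, a difference of -0.39 (adjusted p = 0.119). Its second probe read 6.78, 6.65 and 6.78, then 5.94, 5.93 and 6.09, and passed as a separate probe (-0.75, limma adjusted p = 0.0133). APEX1, the endonuclease for sites without a base, read lower on all 3 arrays labelled SLAMF1 shRNA by a small margin (-0.27, adjusted p = 0.23). PARP1 differed by -0.24, the scaffold gene XRCC1 by -0.02, and the ligase genes LIG1 and LIG3 by 0.15 and 0.51.

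Double-strand breaks can be joined end to end, and in this pathway 1 of 5 tested members was higher and 1 lower. PRKDC, the catalytic subunit of the DNA-dependent protein kinase, read 9.35, 9.26 and 9.35 on the control arrays and 9.75, 10.18 and 10.02 on the others. Its tested probe was higher by 0.66 ± 0.17 (SE, limma adjusted p = 0.028), or 1.58-fold, and by 0.56 without replicate 2 (adjusted p = 0.0156). The call was lost without control replicate 1, 2 or 3 (adjusted p = 0.0697, 0.0988 and 0.0976) and without replicate 3 labelled SLAMF1 shRNA (adjusted p = 0.0934). It was lost as well with arrays centred on their medians (0.42, adjusted p = 0.176). The mean of its 4 probes differed by 0.02, since the 3 dimmer probes differed by -0.35, -0.19 and -0.05. On 2 of these, replicate 2 labelled SLAMF1 shRNA read 4.43 and 4.48 where replicates 1 and 3 read 7.06 and 7.17, and 6.84 and 6.84. Without that array the same probes differed by 0.70 and 0.44 in the upward direction.

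LIG4, the ligase that seals the joined ends, was the only member to pass downward. It read 5.14, 5.33 and 5.48 on the control arrays and 4.75, 4.82 and 4.74 on the others, all near the dim end of the scale. The difference was -0.55 ± 0.16 (SE, limma adjusted p = 0.0444), or 1.46-fold lower, and without replicate 2 it was -0.57 (adjusted p = 0.0156). The value shrank with the treatment of background, to -0.18 with no background correction (adjusted p = 0.11), -0.19 in the second deposited table (0.109) and -0.27 with an offset of 50 (0.0788), none of which passed. The call was also lost with the mean of its probes (-0.44, adjusted p = 0.0585), without control replicate 1, 2 or 3 (adjusted p = 0.0511, 0.127 and 0.172) and without replicate 1 or 3 labelled SLAMF1 shRNA (adjusted p = 0.102 and 0.131). A second probe of LIG4 differed by -0.34. LIG4 lies on the same chromosome as ERCC5, with 3 tested genes between them, of which 1 was lower and 0 were higher.

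The remaining end joining members did not pass. XRCC5, which encodes the Ku80 subunit that clamps the broken end, read 9.89, 10.21 and 10.44 on the control arrays and 9.78, 8.12 and 9.69 on the others. Its difference of -0.98 (adjusted p = 0.131) was the most negative of all members, and without replicate 2 it was -0.44 (adjusted p = 0.0793). XRCC6, which encodes the partner subunit Ku70, differed by 0.04. XRCC4, the binding partner of LIG4, differed by -0.20.

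**Figure D2:**
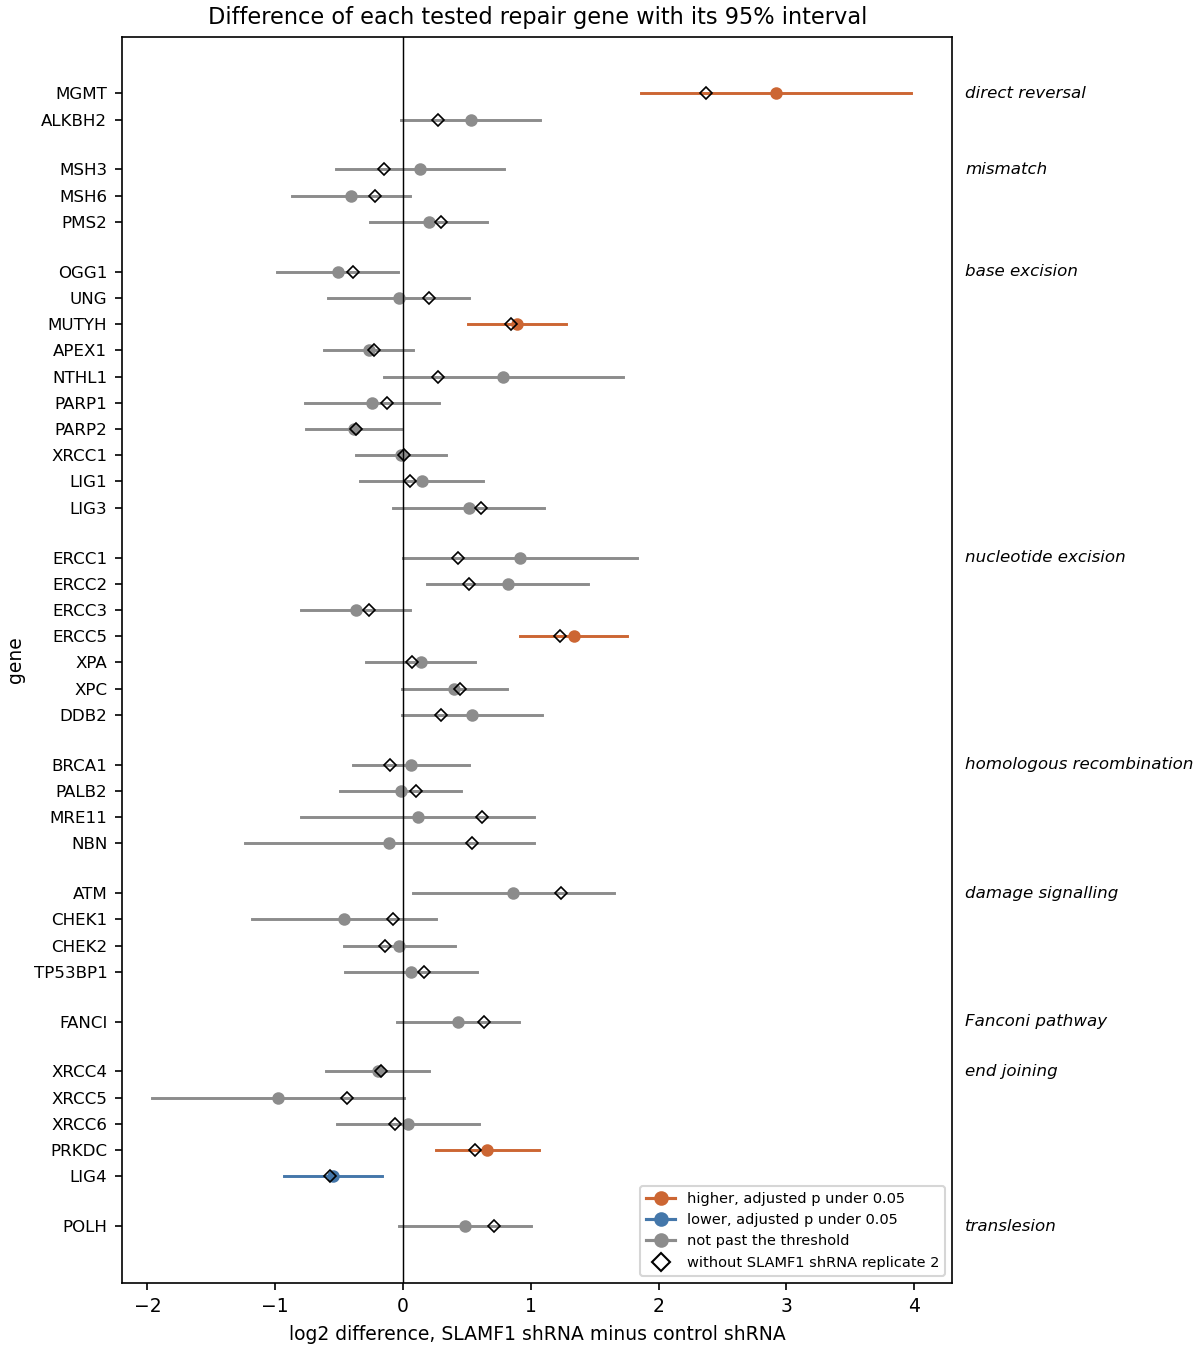
Log2 difference of the 37 tested repair genes (arrays labelled SLAMF1 shRNA minus control shRNA, 3 against 3), grouped by pathway, with 95% intervals as lines and the difference without replicate 2 labelled SLAMF1 shRNA as open diamonds. MGMT at 2.92 lies to the right of all others, LIG4 at -0.55 is the only gene past the threshold on the left, and the diamonds of MRE11, NBN and ATM lie to the right of their filled points.

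Homologous recombination copies the break from the sister chromatid, and 0 of its 4 tested members passed in limma with all arrays, with 0 at an unadjusted p under 0.05. MRE11 and NBN, which encode parts of the complex that first binds the break, depended on replicate 2. MRE11 read 6.70, 6.78 and 6.69 on the control arrays and 7.54, 5.83 and 7.14 on the others. Replicates 1 and 3 were above and replicate 2 was below every control array, so the difference was 0.11 with that array and 0.62 without it (adjusted p = 0.859 and 0.013). NBN read 8.02, 8.18 and 8.05 on the control arrays and 8.79, 6.68 and 8.45 on the others, the same order, with differences of -0.11 and 0.54 (adjusted p = 0.896 and 0.0231). The other kept MRE11 probes, both dimmer, differed by -0.40 and 0.09 with replicate 2 and by 0.31 and 0.19 without it.

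A second NBN probe read 5.34, 5.72 and 5.23 on the control arrays and 6.03, 6.56 and 5.95 on the others, with no overlap and replicate 2 the highest (0.75, adjusted p = 0.0522). The 2 NBN probes thus placed the same array at opposite ends. BRCA1, which organises recombination, differed by 0.06 and PALB2, which links BRCA1 to BRCA2, by -0.02.

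In damage signalling 0 of 4 tested members passed in limma with all arrays, with 1 at an unadjusted p under 0.05. ATM, the kinase that answers double-strand breaks, read 7.02, 6.48 and 6.41 on the control arrays and 8.05, 6.76 and 7.68 on the others. Replicates 1 and 3 were above all control arrays and replicate 2 lay among them. The difference was 0.86 (adjusted p = 0.101), and without replicate 2 it was 1.23 and passed (limma adjusted p = 0.00063). A second ATM probe differed by 0.20 with and 0.53 without that array. CHEK1, the kinase that holds the cell cycle during replication stress, read 9.21, 9.08 and 9.23 on the control arrays and 9.17, 7.95 and 9.02 on the others, so its difference of -0.46 came down to -0.08 without replicate 2. CHEK2 differed by -0.03 on the tested probe and -0.76 on another (adjusted p = 0.125), and TP53BP1, which steers breaks towards end joining, by 0.06.

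In the Fanconi pathway, which unlinks crosslinked strands, FANCI read 8.03, 8.03 and 7.96 on the control arrays and 8.60, 8.03 and 8.67 on the others. Its difference of 0.43 (adjusted p = 0.169) was 0.63 without replicate 2 and then passed (adjusted p = 0.00617). POLH, the polymerase that copies past ultraviolet lesions, read 4.97, 5.21 and 5.04, then 5.74, 5.11 and 5.83. POLH differed by 0.48 (adjusted p = 0.153) with and 0.71 (adjusted p = 0.00404) without that array. On the tested probe of both genes replicates 1 and 3 lay above the control arrays while replicate 2 lay in or beside their range. A second, dimmer POLH probe read 4.35, 4.25 and 4.56 on the control arrays and 4.70, 5.045 and 4.53 on the others. There replicate 2 was the highest and replicate 3 lay among the control arrays. Its difference was 0.37 with and 0.23 without replicate 2.

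Mismatch repair corrects copying errors, and 0 of its 3 tested members passed in limma, with 0 at an unadjusted p under 0.05. MSH6, which recognises single mispairs, read 10.30, 10.26 and 10.22 on the control arrays and 10.07, 9.48 and 10.02 on the others. All 3 were below the control arrays, with a difference of -0.41 (adjusted p = 0.177). MSH3, which recognises larger loops, differed by 0.13 and the nuclease gene PMS2 by 0.20. The tested MSH3 probe averaged 12.83 on the control arrays and a second one 7.11, which differed by 0.27. Without replicate 2 labelled SLAMF1 shRNA the tested MSH3 probe differed by -0.15 and the dimmer one by 0.54.

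**Figure D3:**
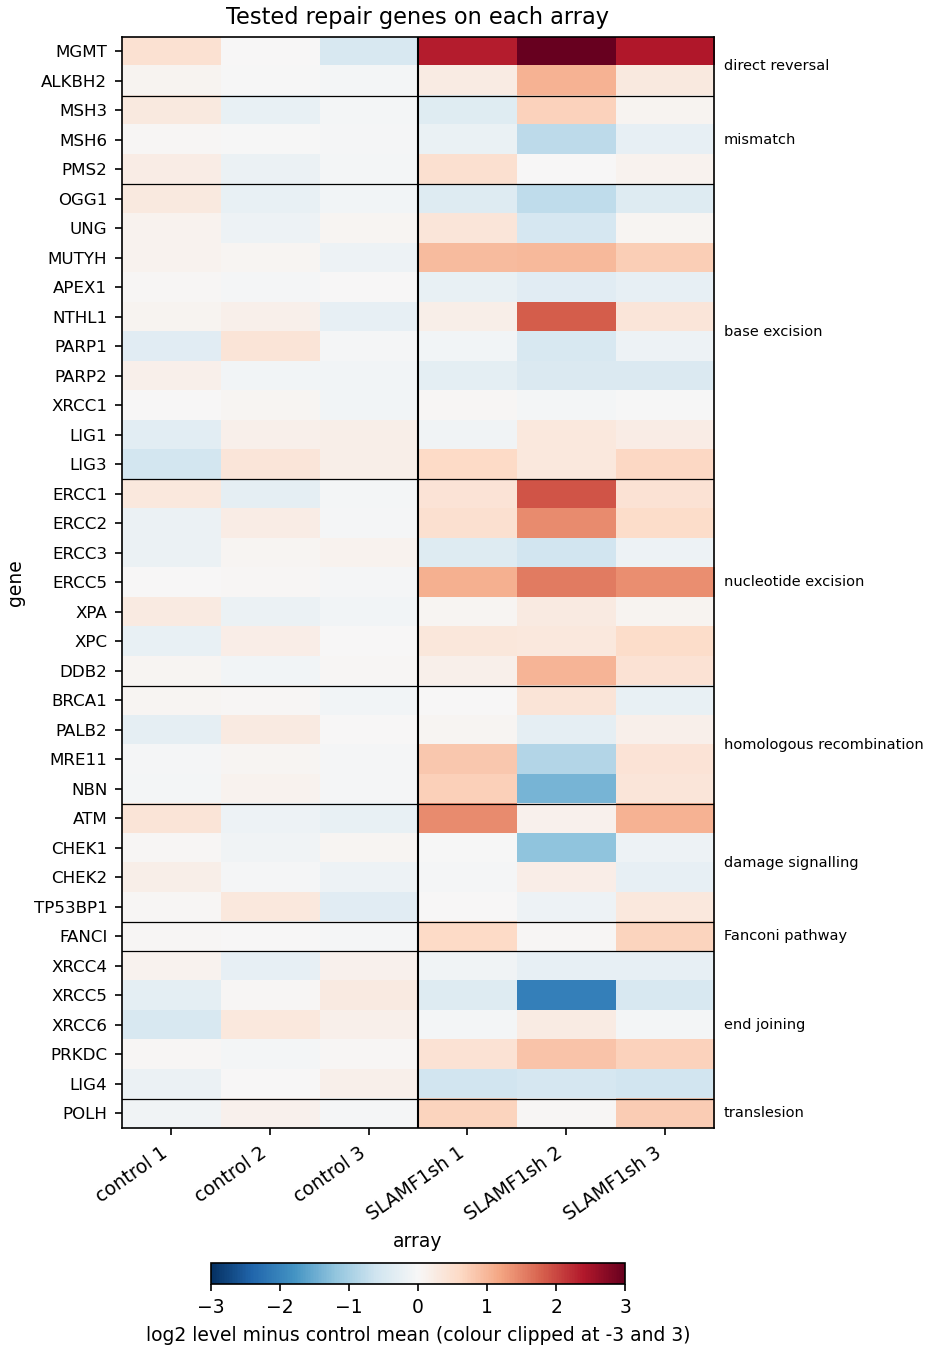
Log2 level of the 37 tested repair genes on each of the 6 arrays minus the mean of the 3 control arrays, with rows grouped by pathway. Red is higher and blue lower, and colour is clipped at -3 and 3. The column of replicate 2 labelled SLAMF1 shRNA departs from the columns beside it, up for MGMT, NTHL1 and ERCC1 and down for NBN, CHEK1 and XRCC5.

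Over all members, replicate 2 labelled SLAMF1 shRNA was the highest or the lowest of the 6 arrays for 24 of 37 genes (64.9%), beside 66.1% of all genes. It lay more than 1 log2 unit from the mean of replicates 1 and 3 for 8 members (21.6%), beside 15.3% of all genes. These were MGMT, NTHL1 and ERCC1 upward and MRE11, NBN, ATM, CHEK1 and XRCC5 downward. Among the 61 kept probes, where several can belong to 1 gene, it did so for 16 (26.2%), 4 upward and 12 downward. Over all genes tested, 856 departed upward and 799 downward by that much. The share over all kept probes was not computed, so the probe count is no result about the members.

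Probes of the same gene often disagreed on that array. Of the 18 genes with several kept probes, 9 had probes whose departures on replicate 2 spanned more than 1 log2 unit, and 9 had departures of opposite sign. NBN gave -1.94 and 0.57, PRKDC between -2.68 and 0.29, and MSH3 -0.81 and 0.83. For 7 of the 18 (MUTYH, ERCC1, MRE11, NBN, ATM, CHEK2 and PRKDC) another probe's difference between the labels lay more than 0.5 from that of the tested probe. The share over all genes with several probes was not computed. Over the 18 genes these differences spanned a median of 0.313 with replicate 2 and 0.312 without it. Without that array the span was 0.70 for ERCC1, 0.70 for ATM and 0.61 for PRKDC. It was 0.43 for MUTYH, 0.43 for MRE11, 0.02 for NBN and 0.25 for CHEK2. Tested as separate probes, 7 of 61 passed (11.5%), 4 higher and 3 lower, beside 22.3% of all 14555 named probes. The 3 lower ones were the tested LIG4 probe and the second probes of OGG1 and PARP2. The signal and the share of detected probes were lowest on this array, and their part in these departures was not tested.

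**Figure D4:**
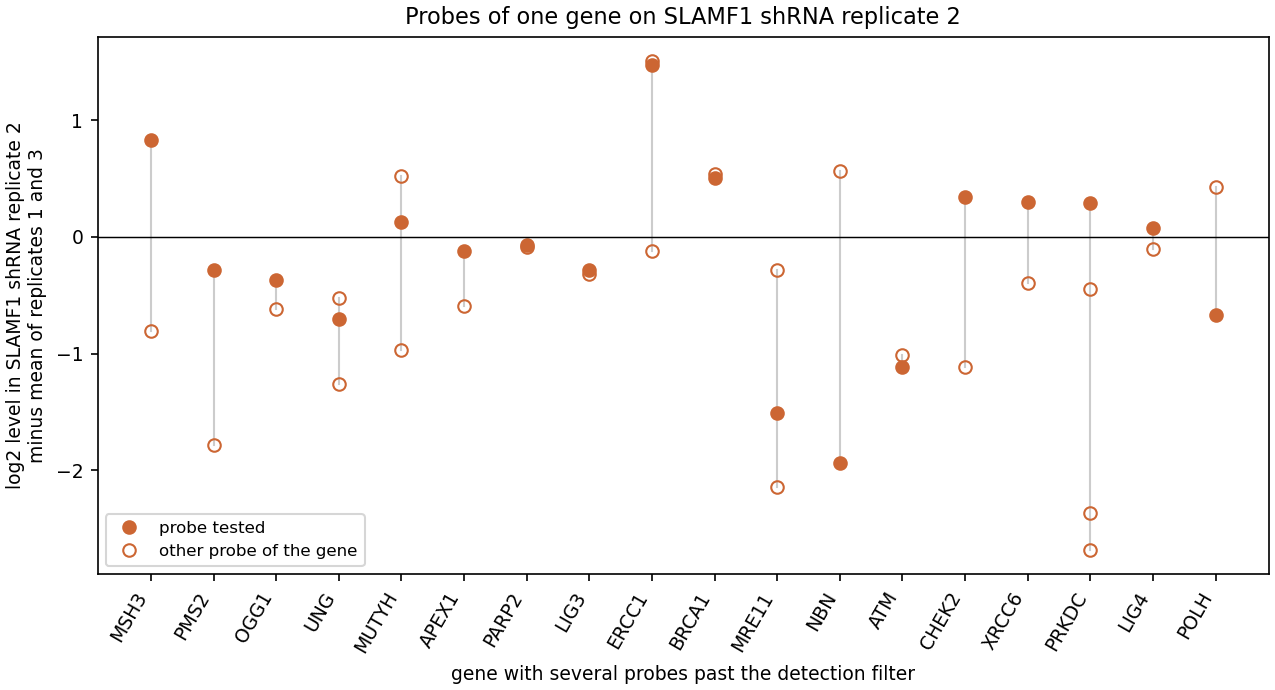
Departure of replicate 2 labelled SLAMF1 shRNA from the mean of replicates 1 and 3 (log2 units) for each kept probe of the 18 repair genes with several, filled for the probe that was tested. Points joined by a line belong to the same gene. The lines of PRKDC (-2.68 to 0.29) and NBN (-1.94 to 0.57) are the longest, while both PARP2 and both BRCA1 probes lie together.

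A wider list of 129 other repair genes was set beside the members, of which 112 were tested. In all, 10 were higher and 6 lower (14.3%, beside 24.6% of all genes), with a median of 0.03. Without replicate 2 labelled SLAMF1 shRNA the counts were 16 and 15 (27.7%, beside 36.9%). Their medians by pathway ran from -0.51 for mismatch repair to 0.38 for end joining. Without replicate 2 these medians were -0.35 and 0.30. In mismatch repair 0 of 4 passed in limma with all arrays and 0 without replicate 2. At an unadjusted p under 0.05 in limma, 3 were lower with all arrays and 1 without replicate 2.

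In base excision repair TDG, the glycosylase for thymine paired with guanine, read 10.25, 11.00 and 10.85 on the control arrays and 9.16, 8.11 and 9.03 on the others. TDG was lower by 1.93 ± 0.32 on the log2 scale (SE, limma adjusted p = 0.00441), and a second probe differed by -0.63, so that the mean of both was -1.28. PARP3, a break sensor of the PARP family, was higher (7.94, 8.27 and 8.23 against 9.43, 9.08 and 9.41, a difference of 1.16, adjusted p = 0.00366). In nucleotide excision repair GTF2H5, the smallest subunit of TFIIH, was lower (9.22, 8.76 and 8.62 against 7.57, 7.66 and 7.27, a difference of -1.36, adjusted p = 0.00338), while ERCC2 and ERCC3 of the same complex did not pass. In recombination RMI2, a partner of the BLM helicase, was higher (8.23, 7.51 and 7.89 against 9.32, 9.28 and 9.17, a difference of 1.38, adjusted p = 0.00309). TDG, GTF2H5 and RMI2 passed under all 18 alternative settings, and PARP3 under all but median centring (0.90, adjusted p = 0.0524).

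The other called genes of that list were less stable. POLD1, the catalytic subunit of a replicative polymerase, was higher by 1.35 (adjusted p = 0.012) and lost its call only without control replicate 3 (adjusted p = 0.0555). PAXX, an end joining factor, was higher by 1.45 (adjusted p = 0.0328) and lost it without control replicate 1, 2 or 3 (adjusted p = 0.0682, 0.119 and 0.121). SLX1A, a nuclease subunit with the near-identical copy SLX1B, whose signals may mix, was higher by 1.25 (adjusted p = 0.0304) and lost it without the same arrays in turn (0.11, 0.0975 and 0.089). REV3L, the catalytic subunit of translesion polymerase zeta, was lower (-1.0, adjusted p = 0.0214), as was the dioxygenase gene ALKBH1 (-0.96, adjusted p = 0.0189). Without control replicate 1, 2 or 3 the adjusted p was 0.0715, 0.0767 and 0.0838 for REV3L and 0.0561, 0.0586 and 0.0895 for ALKBH1. With no background correction REV3L differed by -0.38 and did not pass (adjusted p = 0.0533), nor did it in the second deposited table (-0.38, 0.0525), while ALKBH1 passed at -0.56. SLX1A did not pass with no background correction (0.78, adjusted p = 0.0802). Without replicate 2 labelled SLAMF1 shRNA the difference was 0.97 for PAXX and 0.83 for SLX1A, both past the threshold. A second SLX1A probe gave a smaller difference in the same direction (0.73). The other ALKBH1 probes gave -1.01 and -0.41.

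TDP2, which frees ends blocked by topoisomerase, was lower (-0.88, adjusted p = 0.0283, and -0.33 on a second probe), and TIPIN, a replication fork factor, was lower too (-0.81, adjusted p = 0.0262). The call of TDP2 was lost without any control array (0.0632, 0.0702 and 0.12) or replicate 3 labelled SLAMF1 shRNA (0.0709), and that of TIPIN without control replicate 1 or 3 (0.0593 and 0.0769) or replicate 1 or 3 labelled SLAMF1 shRNA (0.052 and 0.0724). BARD1, the partner of BRCA1, was higher by 0.79 (adjusted p = 0.0222), WDR48, a cofactor of the deubiquitinase USP1, by 0.78 (0.028), BABAM2, of the BRCA1-A complex, by 0.64 (0.025) and the end joining polymerase gene POLM by 0.54 (0.0373). These genes all lost their calls without any control array and without replicate 3 labelled SLAMF1 shRNA. The adjusted p then ran from 0.0522 to 0.0842 for BARD1, from 0.0505 to 0.107 for WDR48, from 0.0695 to 0.101 for BABAM2 and from 0.0769 to 0.139 for POLM. BARD1, BABAM2 and POLM also lost it without replicate 1 labelled SLAMF1 shRNA (0.0551, 0.0642 and 0.0675). With arrays centred on their medians none of these genes passed, at 0.52 for BARD1 (adjusted p = 0.198), 0.51 for WDR48 (0.139), 0.35 for BABAM2 (0.406) and 0.31 for POLM (0.423). With no background correction POLM passed at 0.28 and TDP2 at -0.45.

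Gene groups that change with cell division were measured beside these results. Of 20 proliferation genes, all tested, 0 were higher (0 at an unadjusted p under 0.05) and 3 lower in limma: TYMS (-1.47), CDC20 (-0.70) and CCNE1 (-0.64), with a median of -0.40 over the list. The called genes were 15% of the list, beside 24.6% of all genes (12.9% higher and 11.7% lower). CCNE1 lost its call without control replicate 1, 2 or 3 (adjusted p = 0.0501, 0.0629 and 0.0783) and without replicate 3 labelled SLAMF1 shRNA (0.0731). CDC20 lost it without the same arrays (0.0548, 0.126, 0.155 and 0.076) and without replicate 1 labelled SLAMF1 shRNA (0.0503). Without replicate 2 labelled SLAMF1 shRNA the counts were 1 higher and 4 lower (25%, beside 36.9% of all genes), and the list's median was -0.18. The summed linear level of the list was 30400 to 39500 on the control arrays and 23800 to 33200 on the others, and its part in the differences of CHEK1, MSH6 and other repair genes used in replication was not tested. Of 15 tested targets of p53, 2 were higher and 2 lower (26.7%, beside 24.6% of all genes). Without replicate 2 labelled SLAMF1 shRNA these counts were 3 and 3 (40%, beside 36.9%). SESN2 and TP53INP1, both stress-responsive, were higher by 2.58 and 2.15 (adjusted p = 0.00319 and 0.000225), while CDKN1A, the cell cycle inhibitor p21, and TIGAR, a regulator of sugar metabolism, were lower (-1.08 and -1.29, adjusted p = 0.0198 and 0.0111). CDKN1A lost its call without control replicate 2 or 3 (0.0742 and 0.0829) or replicate 3 labelled SLAMF1 shRNA (0.0611), and TIGAR without control replicate 1 or 3 (0.0502 and 0.0575). With no background correction SESN2, TP53INP1 and TIGAR passed at 1.28, 1.28 and -0.75. DDB2 and XPC, members that are known p53 targets, did not pass.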

How the data were processed

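The deposited values were probe intensities with detection p-values, per the file headers. The submitters' processing notes name GenomeStudio (version not given in the sources used here), and the lowest values show that background was kept. A second deposited intensity table, linear and with a median of 87.9 on each array, served as an alternative. It matched the probe intensities after quantile normalization (100% of values to within 1%). Probes were named from the platform annotation, updated to RefSeq symbols of GRCh38.p14 for 30074 of 30113 probes with 1 symbol, while 8 had several and were not named. In limma 3.58.1 (R 4.3.3), nec with an offset of 16 corrected the background, log2 values were quantile-normalized, and dim probes and further probes of a gene were removed as described above. Folds on this scale understate changes of dim genes. The fit (lmFit, eBayes) had no covariate, with Benjamini-Hochberg adjustment over 10832 genes, threshold 0.05, and was tested on simulated data. The 6 arrays limit precision. Array position and label cannot be told apart. The members and lists were chosen with earlier results of these data known. All members are named, with up to 3 called genes per pathway of the other lists. Alternatives changed background, normalization, filter, probe choice, variance model, replicate block or left out an array.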

Additional observations from a re-analysis of the deposited data

How the results depend on the processing

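MGMT and ERCC5 passed under all 18 alternatives, MGMT between 1.88 and 3.20. Without 1 array at a time, calls over all genes ran from 675 to 2103 higher and 622 to 1889 lower. Both directions together were 12% to 36.9% of all genes. Members ran from 3 to 10 higher and 0 to 1 lower, and other repair genes from 2 to 16 higher and 2 to 15 lower. The members' median ran from 0.0887 to 0.167. Centring on medians moved the median of all genes to -0.14 and the share of higher calls from 52.5% to 42.5%. It left 17.7% of all genes called, 815 of them higher, with 2 members and 3 other repair genes higher and a members' median of -0.14. That median was 0.05 without background correction and in the second deposited table (0.0538 and 0.0545), and 0.0623 with no filter. Array weights were fitted gene by gene because the likelihood fit did not converge, and replicate 2 labelled SLAMF1 shRNA had the lowest weight (0.123). With these weights 2758 genes were higher and 2618 lower, 49.6% of all genes. Of the 37 tested members 15 were higher and 3 lower, and of the 112 other repair genes 25 and 24. The strict filter left 7809 genes tested, of which 830 were lower. No member was lower with offset 50 or with the strict filter, under which LIG4 was not tested. With the mean of probes 2 were lower (OGG1 and PARP2, not LIG4), and 3 with each probe tested separately.

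With the replicate number as a block, 4 members were higher and 0 lower, and 4 other repair genes higher, beside 19.1% of all genes called. PRKDC and LIG4 were lost (adjusted p = 0.0699 and 0.0971) and ERCC2 was gained (0.82, adjusted p = 0.0461). The differences of PRKDC and LIG4 were 0.66 and -0.55 with the block as without it. Each replicate number occurs once in each label, so the block cannot change a difference, only its error. Deviations of same-numbered arrays correlated at -0.205, -0.14 and 0.21, which differ in sign. With so few arrays a label these values cannot decide whether the replicate numbers mark a pairing, which was not tested.

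Over the 32 members not called, 37 of 575 values turned sign and 26 passed the threshold, 1 of them with the sign turned (NBN without replicate 2 labelled SLAMF1 shRNA), and over the 5 called, 18 of 89 lost it and 0 turned sign. Without 1 array at a time, differences ran from -0.15 to 0.38 for MSH3, -0.23 to 0.20 for UNG, -0.059 to 0.0131 for XRCC1, -0.0153 to 0.27 for LIG1, -0.11 to 0.20 for BRCA1, -0.16 to 0.11 for PALB2, -0.24 to 0.62 for MRE11, -0.51 to 0.54 for NBN, -0.14 to 0.0822 for CHEK2, -0.11 to 0.21 for TP53BP1 and -0.20 to 0.20 for XRCC6. Median centring gave -0.0914 for PMS2, -0.14 for LIG1, -0.078 for XPA, -0.20 for BRCA1, -0.13 for MRE11, -0.23 for TP53BP1 and -0.17 for XRCC6. Array weights gave 0.13 for UNG, 0.0159 for XRCC1, -0.11 for BRCA1, 0.0542 for PALB2, 0.42 for NBN and -0.18 for XRCC6. Cyclic loess gave 0.0147 for XRCC1 and 0.0221 for PALB2, and the mean of probes -0.0647 for MRE11, 0.32 for NBN and -0.0712 for XRCC6. The cause of these changes was not tested.

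With 3 arrays a label, replicate 2 labelled SLAMF1 shRNA set much of the spread. MGMT, ERCC5 and several others were read by 1 kept probe, whose position was not used here, and a dim probe such as those of LIG4, XRCC4 or POLH is compressed by the offset.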
